A study of Rattus norvegicus with 6 samples.

Results

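The Notch pathway was examined through 10 genes, the receptors Notch1, Notch2, Notch3 and Notch4, the ligands Jag1, Jag2 and Dll1, the nuclear mediator Rbpj and the target genes Hes1 and Hey1. All rows of the gene table carrying one of these symbols were taken, which gave 11 of 30957 rows, since Rbpj is listed on chromosome 14 and again on chromosome 5. The samples were 3 sciatic nerves that had been crushed and 3 uninjured contralateral ones, called intact, from Sprague Dawley rats. The methods describe adult males with collection at 4 days postinjury (dpi) and name the proximal stump as the part of the crushed nerve that was taken, whereas the sample labels give no time point. No transgene or drug is named for either group. The question for each member was whether its RNA differed between crushed and intact nerves. The labels do not say whether nerves with the same number came from the same rat, so p-values measure the spread between these nerves.

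Notch receptors are single-pass membrane proteins that bind Jagged and Delta-like ligands on neighboring cells. Ligand binding exposes the receptor to cleavage by ADAM proteases and then by γ-secretase, and the freed intracellular domain enters the nucleus. There it joins the DNA-binding protein RBPJ and Mastermind coactivators and switches on genes such as Hes1 and Hey1, which encode transcriptional repressors. In peripheral nerve, Notch signaling is known for promoting Schwann cell formation and proliferation and for opposing myelination.

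The counts on genes summed to between 24844371 and 27139360 per nerve, and 12393 genes passed the expression filter. At this depth 3 counts, taken as the lowest level told from 0, were between 0.110 and 0.121 normalized CPM (read counts scaled to a common library size), which covers counting error only. Within each group, pairs of nerves were further apart than counting noise allows (chi-square divided by its degrees of freedom, 3.38 to 12.4). The markers of sciatic nerve cell types were mixed, with several defining genes absent and others well measured in all 6 libraries. The myelinating Schwann cell markers Mbp and Mag and the Schwann cell lineage marker Sox10 had at most 1 count in any nerve, whereas Pmp22 had between 821 and 968, Prx between 590 and 690 and Ncam1 between 2064 and 2489. At or under 3 counts in every nerve were 3 of 7 myelinating Schwann cell markers, 2 of 8 Schwann cell lineage markers, 3 of 6 fibroblast markers and 5 of 8 macrophage markers. The macrophage markers Ptprc, Adgre1 and Cd163 and the fibroblast markers Col1a2, Dcn and Lum had 0 counts in every nerve, against 29 to 52 for Cd68, 1114 to 1525 for Pdgfra and 293 to 537 for Col1a1. Summed per nerve, the myelinating markers lay between 60.2 and 66.7 CPM, the Schwann cell lineage markers between 206.4 and 270.0 CPM, the fibroblast markers between 62.7 and 71.6 CPM and the macrophage markers between 1.93 and 3.15 CPM. Most of the Schwann cell lineage sum was Jun, between 122.8 and 162.1 CPM, and Ncam1, between 76.2 and 98.4 CPM. In the same list, S100b had at most 3 counts and Ngfr at most 5 in any nerve. The proliferation gene Mki67 had between 37037 and 43837 counts. T cell, neutrophil, adipocyte and skeletal muscle markers summed to at most 1.92, 0.158, 0.283 and 0.227 CPM per nerve.

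The members spanned the whole range of expression, and 1 receptor, 1 ligand and Rbpj carried nearly all of the signal. FPKM, which divides counts by gene length, was used to compare genes. Rbpj on chromosome 14 was the most abundant, with 144.7 ± 0.590 FPKM in intact and 147.8 ± 1.99 FPKM in crushed nerves (SD, n = 3 nerves each here and below), above 95.9% of the genes tested. Notch2 followed with 36.2 ± 0.448 and 38.9 ± 0.440 FPKM, above 79.0% of the genes tested. The Rbpj row on chromosome 5 had 11.9 ± 0.937 and 12.8 ± 0.130 FPKM. Jag1 had 5.87 ± 0.353 and 7.51 ± 0.335 FPKM, and Notch1 had 2.70 ± 0.191 and 2.42 ± 0.120 FPKM. The first 5 rows in this order did not overlap with their neighbors in any nerve.

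Hes1 and Dll1 stood next to each other in the order. In intact nerves, Hes1 had between 1.11 and 1.51 FPKM and Dll1 between 0.511 and 0.625, with no overlap. In crushed nerves, Hes1 had between 0.806 and 1.18 FPKM and Dll1 between 0.744 and 1.08, so that their ranges overlapped. Notch4 was far lower, with 0.128 ± 0.0472 FPKM in intact and 0.136 ± 0.0418 FPKM in crushed nerves, above only 1.01% of the genes tested. The other members did not pass the expression filter. Jag2 had 0, 9 and 4 counts on the intact side and 3, 4 and 0 on the crushed side. Notch3 had 1 count in intact nerve 1 and 0 elsewhere, and Hey1 had 1 count in crushed nerve 3 and 0 elsewhere. Both were under the floor of 3 counts in every nerve, so no difference was detectable in them at this depth.

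**Figure D1:**
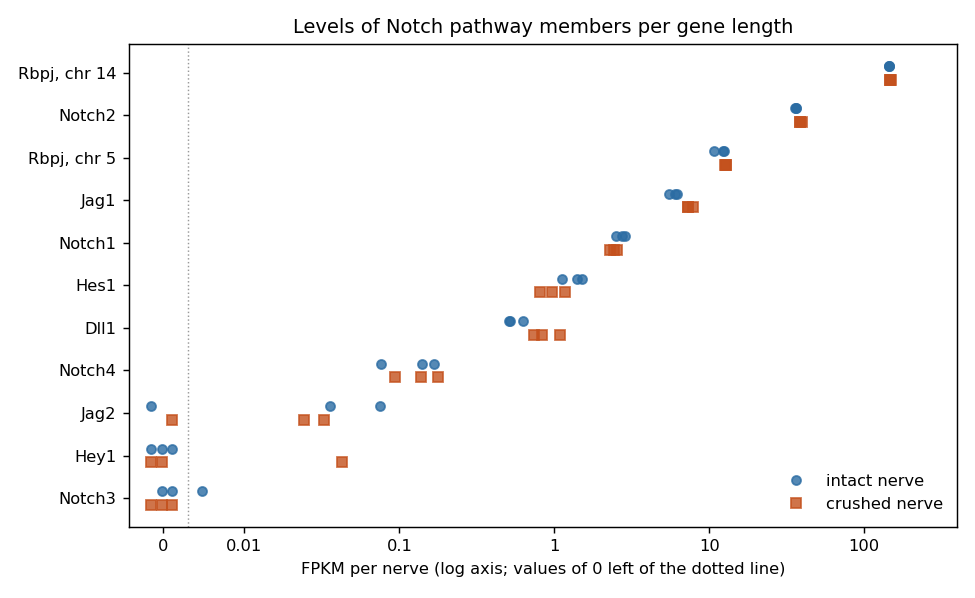
FPKM of each of the 11 rows (log axis, values of 0 set apart at the left) in every intact nerve (circles) and crushed nerve (squares). The rows run from Rbpj on chromosome 14 near 145 FPKM to Hey1 and Notch3, which had 0 FPKM in 5 of 6 nerves each, and Hes1 and Dll1 lie close together in the crushed nerves.

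RBPJ binds DNA at sites built around TGGGAA, most strongly where a G precedes it, as in GTGGGAA. The RefSeq table (GRCr8) held promoters for 9 of the 10 members, and not for Hey1. In the 250 bases before the start, GTGGGAA was found on either strand in 5.27% of 33469 promoters and TGGGAA, which GTGGGAA contains, in 22.1%. Of the 11 promoter entries of members, 2 held GTGGGAA, those of Hes1 and Dll1, and 5 held TGGGAA, in Hes1, Dll1, Notch4 and both entries of Rbpj, which overlap each other. The letters of Hes1, Dll1 and Jag1 are shown, a target gene and the 2 member ligands that were tested. Capitals mark TGGGAA or its complement on the other strand, and each stretch runs from 200 to 41 bases before the start on the gene's own strand, which is the minus strand for all 3 genes. A match describes letters and is not a measured binding site.
Hes1, chr11:84213086-84213245: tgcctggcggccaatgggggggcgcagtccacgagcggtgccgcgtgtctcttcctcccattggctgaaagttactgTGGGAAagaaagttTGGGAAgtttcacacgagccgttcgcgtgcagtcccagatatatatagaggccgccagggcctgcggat
Dll1, chr1:64993315-64993474: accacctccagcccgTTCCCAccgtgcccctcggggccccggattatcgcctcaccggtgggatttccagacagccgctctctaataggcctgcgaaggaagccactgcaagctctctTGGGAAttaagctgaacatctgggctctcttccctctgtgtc
Jag1, chr3:144894924-144895083: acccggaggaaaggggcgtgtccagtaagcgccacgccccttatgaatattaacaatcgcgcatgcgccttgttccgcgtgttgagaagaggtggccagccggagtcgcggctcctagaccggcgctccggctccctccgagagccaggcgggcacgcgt

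In Hes1 the 2 matches began 123 and 109 bases before the start, on the same strand. In Dll1 they began 185 and 82 bases before the start, on opposite strands. Jag1 had no match in its 250 bases. The N box CACNAG, a sequence bound by HES repressors, was found on either strand in 4 of the 11 promoter entries of members, against 37.2% of all promoters. Hes1 held 4 matches, counting both strands. Notch1 also held 4 matches, of which 2 overlapped, Notch4 had 2 and Notch3 had 1.

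Between crushed and intact nerves, Jag1 rose, and no other member passed the adjusted threshold. Of the 8 rows tested, 0 reached an absolute log2 fold change above 1 with a p under 0.001, the threshold taken from the methods, which 0.282% of all genes tested reached. At an adjusted p under 0.05 (edgeR's quasi-likelihood test), Jag1 was higher and no member was lower, against 1.47% of all genes higher and 1.65% lower. At an unadjusted p under 0.05, Jag1, Dll1 and Notch2 were higher and Notch1 and Hes1 were lower, against 6.71% and 9.5% of all genes. In Jag1, Dll1 and Notch2 every crushed nerve lay above every intact nerve, and no member lay wholly below, against 10.8% of all genes above and 12.2% below. The median log2 fold change was 0.09 over the 8 rows and -0.0017 over all genes tested. The count at an unadjusted p under 0.05 was 2 in place of 5 with DESeq2 or without intact nerve 2, crushed nerve 1 or crushed nerve 3, and 3 without intact nerve 1.

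**Figure D2:**
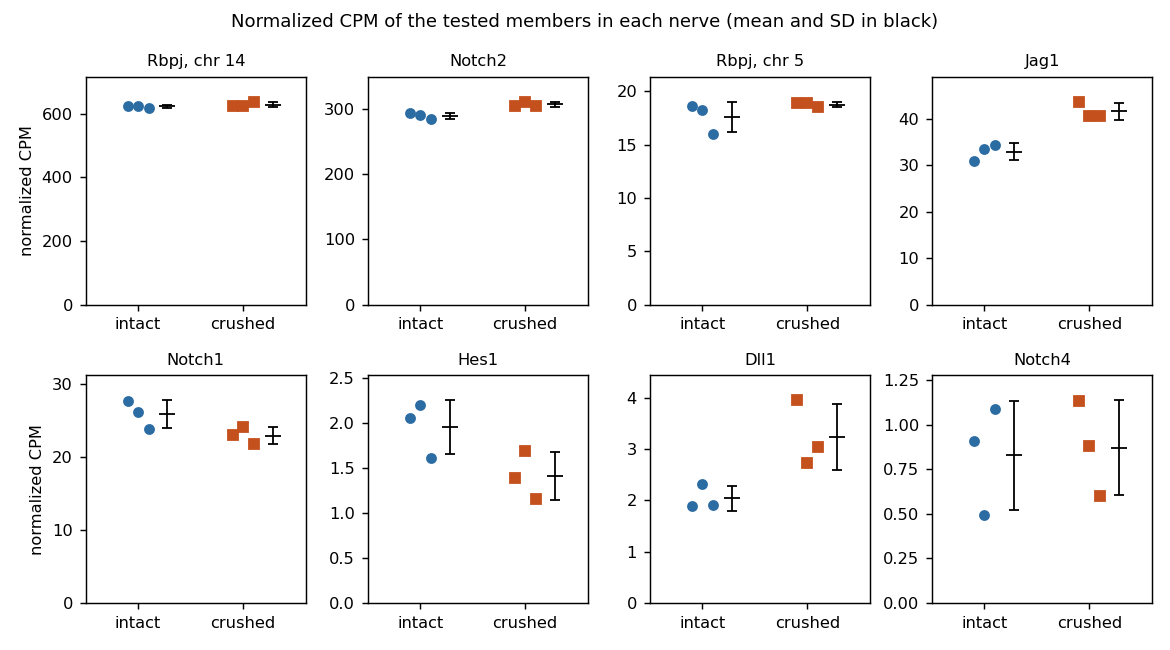
Normalized CPM (axes start at 0) of the 8 rows tested in each intact and crushed nerve, with the mean and SD of 3 nerves in black. The groups do not overlap for Jag1, Dll1 and Notch2, while Rbpj on chromosome 14 stays between 618 and 638 CPM in all 6 nerves and Notch4 overlaps widely.

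The ligands had the largest positive differences. Jag1 encodes Jagged1, a membrane ligand of Notch receptors, and lies at chr3:130079361-130114770 in the deposited table. Intact nerves held 780, 886 and 852 Jag1 counts, and crushed nerves held 1194, 1100 and 1017. The groups did not overlap, and crushed nerve 1 was the highest. The level rose from 32.9 ± 1.87 to 41.6 ± 1.83 normalized CPM, 1.26-fold, a log2 fold change of 0.34 (standard error 0.0635, 95% interval 0.20 to 0.48, edgeR's quasi-likelihood test, adjusted p = 0.0166). Without crushed nerve 1 the adjusted p was 0.102, without crushed nerve 2 it was 0.0583, and without crushed nerve 3 it was 0.0501, with log2 fold changes of 0.30, 0.36 and 0.35. Limma on log2(FPKM + 0.1) gave an adjusted p of 0.0688, and over all alternatives the adjusted p lay between 0.000912 and 0.102.

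Dll1, which encodes the ligand Delta-like 1 (chr1:57318708-57327379), had a larger log2 fold change and far fewer counts. Intact nerves held 48, 61 and 47 counts and crushed nerves 108, 74 and 76, with no overlap and with crushed nerve 1 apart from the other crushed nerves. The means were 2.04 ± 0.239 and 3.24 ± 0.640 normalized CPM. The log2 fold change of 0.67 (standard error 0.185, 95% interval 0.26 to 1.08) did not pass the adjusted threshold (adjusted p = 0.0918, edgeR's quasi-likelihood test). Without crushed nerve 1 it was 0.50. At this depth counting error alone gives a coefficient of variation of 13.9% in intact and 10.8% in crushed nerves, where 11.8% and 19.8% were measured. Jag2, with at most 9 counts in a nerve, gave no usable difference. Jag1 made up 90.9 ± 1.22% of the summed FPKM of these 3 ligands in intact nerves and 89.3 ± 1.41% in crushed nerves, and the groups overlapped.

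Among the receptors, Notch2 was slightly higher and Notch1 slightly lower in crushed nerves. Notch2 (chr2:200187184-200317621) had 7421, 7680 and 7050 counts on the intact side and 8323, 8463 and 7656 on the crushed side. After normalization this was 289.6 ± 4.52 and 307.3 ± 3.80 CPM with no overlap, a log2 fold change of 0.09 (95% interval 0.0051 to 0.17, adjusted p = 0.277). Notch1 (chr3:3905453-3951025) had 699, 690 and 590 counts in intact and 626, 652 and 544 in crushed nerves. Its normalized CPM was 25.9 ± 1.92 and 22.9 ± 1.15, with crushed nerve 2 just above intact nerve 3, and its log2 fold change was -0.18 (95% interval -0.34 to -0.0096, adjusted p = 0.279). Neither receptor passed the adjusted threshold of edgeR's quasi-likelihood test.

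The ratio of these receptors does not depend on how libraries were scaled. Ratios between members were chosen after the values of these members were seen, so they describe the same differences and are not an independent test. There were 10.6, 11.1 and 11.9 Notch2 counts per Notch1 count on the intact side and 13.3, 13.0 and 14.1 on the crushed side. Each crushed nerve exceeded each intact nerve (11.2 ± 0.672 against 13.4 ± 0.563, exact permutation test, two-sided, p = 0.1, adjusted p = 0.225 over 9 ratios), and 0.1 is the smallest p that 3 nerves against 3 allow. Notch2 made up 92.8 ± 0.352% of the summed FPKM of the 4 receptors in intact and 93.8 ± 0.299% in crushed nerves, and Notch1 6.90 ± 0.383% and 5.82 ± 0.222%. Jag1 had 113.8 ± 7.99 counts per 1000 Notch2 counts in intact and 135.4 ± 7.10 in crushed nerves, again without overlap (exact permutation test, p = 0.1, adjusted p = 0.225).

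**Figure D3:**
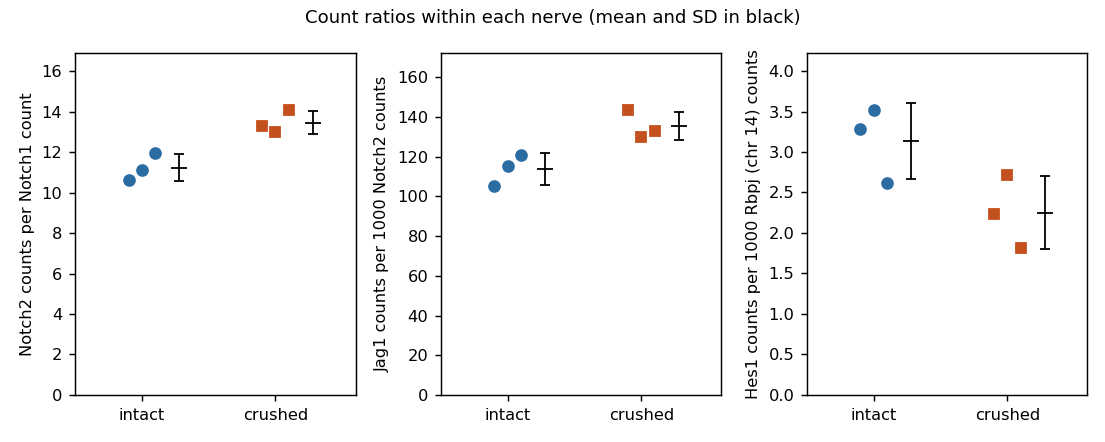
Count ratios within each nerve (axes start at 0), with the mean and SD of 3 nerves in black. Notch2 per Notch1 and Jag1 per 1000 Notch2 are higher in every crushed than in every intact nerve, whereas Hes1 per 1000 Rbpj overlaps between the groups.

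Notch4, a receptor known from endothelial cells (chr20:4329811-4353785), had 23, 13 and 27 counts in intact and 31, 24 and 15 in crushed nerves. These ranges overlapped almost fully, and the log2 fold change of 0.09 had a 95% interval from -0.65 to 0.83. Its sign changed without intact nerve 2 (-0.18) or without crushed nerve 1 (-0.15). Notch3, the receptor of pericytes and vascular smooth muscle (chr7:14138495-14189688), was at or under 1 count. Beside these values, the 6 endothelial markers in the table summed to between 4.66 and 5.53 CPM in intact and between 3.77 and 5.08 CPM in crushed nerves, with Cldn5 at 0 counts and Tie1 at no more than 1. The pericyte and smooth muscle markers summed to between 194.8 and 211.7 CPM in intact and between 156.6 and 159.7 CPM in crushed nerves. Most of this sum was Cspg4, between 173.1 and 188.0 CPM in intact and between 141.9 and 142.8 CPM in crushed nerves. Rgs5 had 0 counts and Acta2 at most 3 in any nerve. Of 4 tested markers, 2 were lower at an adjusted p under 0.05 (Pdgfrb and Cspg4, log2 fold changes of -0.77 and -0.35). By the same rule 2 of 5 tested Schwann cell lineage markers (Erbb3 and Ncam1) were lower. So were 2 of 3 tested fibroblast markers (Col1a1 and Col3a1). Over all genes tested, 1.65% were lower by this rule. Pdgfra, the other fibroblast marker tested, had a log2 fold change of 0.19 and did not pass. Of the 2 macrophage, 3 endothelial, 1 T cell, 4 myelinating Schwann cell and 4 proliferation markers tested, 0 passed in either direction. Among them, every crushed nerve lay below every intact nerve in Tek and Prx and above in Ccnb1, beside 12.2% of all genes below and 10.8% above. In bulk RNA, fewer cells of a type and less RNA per cell cannot be told apart, and the part of these cells in the members' values was not tested.

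Rbpj, which encodes the DNA-binding partner of the receptors' intracellular domain (chr14:59658935-59735450), had 15825, 16496 and 15315 counts on the intact side and 17017, 16966 and 15992 on the crushed side. Its normalized CPM of 622.9 ± 4.09 and 628.7 ± 8.27 overlapped, with a log2 fold change of 0.01. The 95% interval, from -0.06 to 0.09, corresponds to folds from 0.958 to 1.06 (adjusted p = 0.888 in edgeR's quasi-likelihood fit). The row on chromosome 5 (chr5:4679515-4879634) had between 395 and 482 counts in intact and between 464 and 515 in crushed nerves, a log2 fold change of 0.09 (adjusted p = 0.624 from the same test). It took 2.75 ± 0.202% of the counts on both rows in intact and 2.90 ± 0.0658% in crushed nerves. RefSeq lists a pseudogene Rbpjl2, an older synonym of which is Rbpsuh, on chromosome 5 of the GRCr8 assembly, so reads could be split between similar copies. With the rows summed, the log2 fold change was 0.02.

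Hes1, a repressor and classical Notch target (chr11:74312806-74315248), was the member with the most negative difference. Intact nerves held 52, 58 and 40 counts and crushed nerves 38, 46 and 29. Crushed nerve 2 overlapped with intact nerve 3 after normalization, at 1.69 and 1.61 CPM. The means were 1.96 ± 0.304 and 1.41 ± 0.269 CPM, and the log2 fold change of -0.46 (standard error 0.209, 95% interval -0.93 to -0.0019) did not pass the adjusted threshold (adjusted p = 0.307, edgeR's quasi-likelihood test). The measured coefficients of variation, 15.5% in intact and 19.0% in crushed nerves, were close to those of counting error, 14.1% and 16.3%. Per 1000 Rbpj counts there were 3.14 ± 0.470 Hes1 counts in intact and 2.25 ± 0.449 in crushed nerves, with overlap (exact permutation test, p = 0.2, adjusted p = 0.257 over the 9 ratios).

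**Figure D4:**
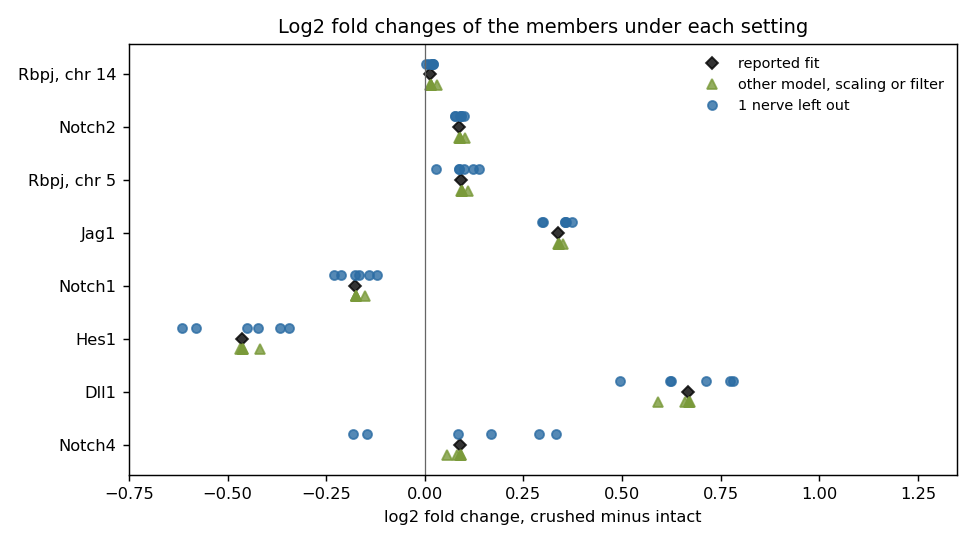
Log2 fold changes (crushed minus intact) of the 8 rows tested in the reported fit (diamonds), in fits with 1 nerve left out (circles) and with another model, scaling or filter (triangles). Only the values of Notch4 fall on both sides of 0, from -0.18 to 0.33, and those of Jag1 stay between 0.30 and 0.37.

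Few genes in the rest of the pathway were called, and their counts stood near the background of all genes. Of 53 other pathway genes, 50 were in the table and 39 passed the filter, 20 with log2 fold changes above and 19 below 0 (median 0.0016). At an adjusted p under 0.05, 1 of the 39 was higher and 0 were lower, beside 1.47% and 1.65% of all genes tested. At an unadjusted p under 0.05, 3 were higher and 4 were lower, beside 6.71% and 9.5% of all genes. The gene that rose was Dtx3l, a Deltex-family E3 ubiquitin ligase, with 1211, 1336 and 1245 counts in intact and 1609, 1583 and 1445 after crush. The log2 fold change of Dtx3l was 0.23, with a standard error of 0.0493 (edgeR's quasi-likelihood test, adjusted p = 0.0294). Dtx3l lost its call with the replicate number as a block, with limma, and without intact nerve 2, intact nerve 3 or any 1 of the crushed nerves. Without crushed nerve 3 the gene called was Spen, an RBPJ-binding corepressor, which had 2217, 2098 and 1744 counts in intact and 3251, 3178 and 1661 in crushed nerves and was named after its values were seen.

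By role, all 8 genes of receptor cleavage that were tested (among them Adam10, Adam17, Furin and the γ-secretase subunits Psen2, Psenen, Ncstn and Aph1a) lay between log2 fold changes of -0.04 and 0.06, and none of these 8 passed even the unadjusted threshold. The 4 genes of receptor glycosylation tested lay between -0.03 and 0.21. The highest was Poglut1, which adds O-glucose to Notch, at 0.21 (adjusted p = 0.117). Of 12 endocytosis and ubiquitin regulators, 6 were above and 6 below 0. Of 13 nuclear coactivators and corepressors, 3 were above and 10 below 0, with a median of -0.06. Among them, Tle3, a Groucho-family corepressor, was at -0.15 (adjusted p = 0.158), all from edgeR's quasi-likelihood test.

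Other ligands and targets were mostly silent. Of 4 further ligands, 3 (Dll4, Dlk1 and Dlk2) were at or under 3 counts in every nerve. Dll3 had 4, 4 and 9 counts in intact and 12, 11 and 11 in crushed nerves, a log2 fold change of 0.93 with a 95% interval from 0.00061 to 1.85 (edgeR's quasi-likelihood test, adjusted p = 0.308). Of 7 further targets in the table, only Hes6 passed the filter, with a log2 fold change of 0.09, and 4 (Hes2, Hes3, Hes5 and Heyl) were at or under 3 counts in every nerve. The 7 targets summed to between 3.92 and 6.06 CPM in intact and between 4.90 and 5.90 CPM in crushed nerves, with overlap.

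**Figure D5:**
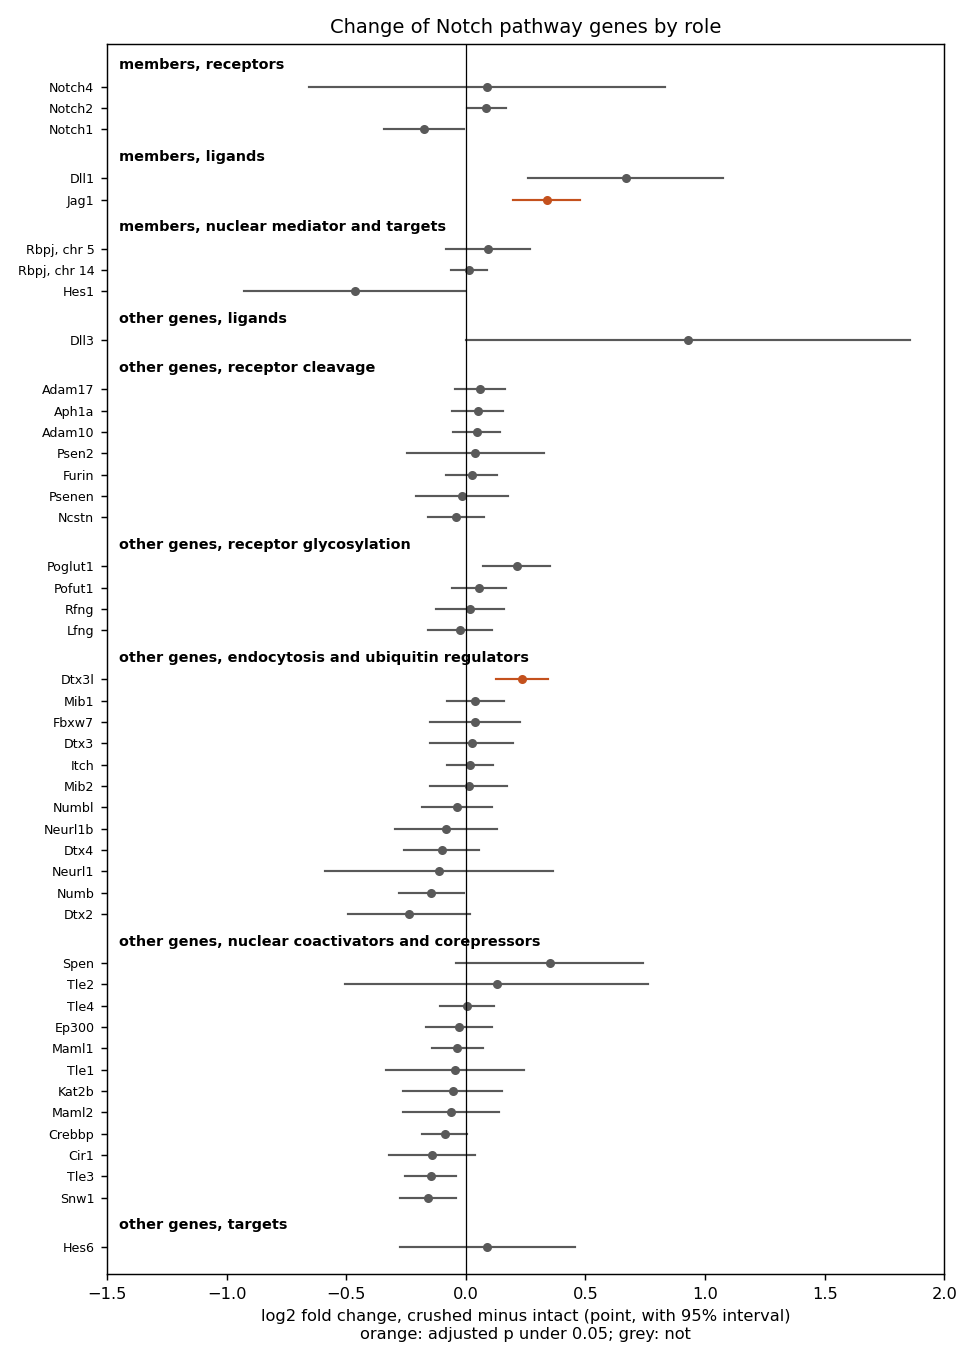
Log2 fold changes (crushed minus intact) with 95% intervals of the 8 member rows and 37 of the other pathway genes tested, grouped by role, with adjusted p under 0.05 in orange. Jag1 and Dtx3l are the 2 genes in orange, and the genes of receptor cleavage lie close to 0.

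Most differences in the pathway were small beside those of a list of NF-κB response genes, which was chosen with their rise already known. Of these 10 genes, 9 were higher at an adjusted p under 0.05 and 0 lower, with log2 fold changes from 0.22 to 1.85 and a median of 1.22. The log2 fold change of Jag1, 0.34, was at the low end of that range. Those of Dll1, 0.67, and Dll3, 0.93, lay further inside it, though neither gene passed the adjusted threshold. The 3 genes whose log2 CPM followed Jag1 most closely over the 6 nerves were Limd2 (Pearson r = 0.997), Dync2li1 (0.992) and Sh3tc1 (0.991), as a description over nerves that fall into 2 groups, and 115 genes had an r of at least 0.95.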

How the data were processed

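RNA from 3 crushed and 3 intact contralateral rat sciatic nerves was sequenced. The paper's methods describe removal of rRNA and then treatment of the RNA with RNase R before libraries were made. The effect of this treatment on the levels and differences given here was not tested. Per the file headers, the authors deposited 1 table holding, for each nerve and Ensembl gene, an unnormalized count of reads and an FPKM value (counts divided by gene length and library total). The submitters' processing notes name HISAT2, StringTie 1.3.0 and the Rnor_6.0 build. Whether the counting used strand is not given in the sources used here. Columns were matched to nerves by sample title, and 0 columns of values were left over.

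Log2 fold changes were computed from the counts in R 4.3.3 with the quasi-likelihood test of edgeR 4.0.16 over all 6 nerves, after TMM scaling and filterByExpr and without a block for replicate number. Limma was version 3.58.1. P-values were adjusted with the Benjamini-Hochberg method over the 12393 genes that passed the filter. Standard errors and 95% intervals were taken from the test statistic. Normalized CPM are counts relative to the TMM-scaled library size. Genes below the filter are given as counts. The fit was tested on simulated counts, whose changes were all larger than the log2 fold change of any member tested. Differences as small as those of the members were therefore not covered by it. Alternatives were the replicate number as a block, DESeq2 1.42.0, RLE factors, no filter, limma on log2(FPKM + 0.1) and each nerve left out in turn. For the order of the levels, FPKM was replaced by CPM divided by a gene length computed from the deposited counts and FPKM. A further alternative, chosen after the values were seen, was the sum of both Rbpj rows. Ratios between members were also chosen after the values were seen and were compared with exact two-sided permutation tests over the nerves. Whether the same replicate number marks the same rat is not stated. The numbers were therefore not treated as pairs.

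All 10 members were named. Of the other pathway genes, those with an adjusted p under 0.05 (at most 12) were named, and, with fewer than 4 of those, also 2 in each direction, ranked by p. A few genes of these lists are not reported here by name. For the member with the smallest p, the 3 genes most correlated with it were named. The members, the pathway list, the marker lists and the NF-κB list were chosen with earlier results of these data known. Promoter letters come from RefSeq (GRCr8), and no coordinate was carried between builds.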

Additional observations from a re-analysis of the deposited data

How the results depend on the processing

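No member reached an absolute log2 fold change above 1 with a p under 0.001 under any of the 11 alternatives run. The number of members with an adjusted p under 0.05 was 1 in the fit reported, 0 with limma on log2(FPKM + 0.1) and between 0 and 1 across the fits without 1 nerve. Over all genes tested, the number was 387 in the fit reported, 242 with limma, 507 with DESeq2 and 300 with the replicate block. It lay between 177 and 204 without 1 crushed nerve and between 253 and 400 without 1 intact nerve. The other pathway genes with an adjusted p under 0.05 numbered 1, against 0 with the replicate number as a block (paired fit), 2 with DESeq2, 0 with limma and between 0 and 2 across the fits without 1 nerve. The block left the member count at 1. The labels do not tie the numbers to rats, and gene deviations from the group mean correlated by -0.015, 0.0059 and 0.076 between nerves sharing a number. The log2 fold change of Notch4 lay between -0.18 and 0.33 across the fits without 1 nerve. The other 7 rows kept their sign under all alternatives run on them. The order of the members' levels was the same with CPM divided by gene length in place of FPKM. That length was itself computed from the deposited counts and FPKM, so the order could hardly change and this is not an independent check. The causes were not tested. The median log2 fold change over all genes tested lay between -0.0041 and 0.016 under these settings. Dll1, Hes1 and Notch4 rest on 13 to 108 counts per nerve. The coefficient of variation of Dll1 in crushed nerves and of Notch4 in both groups was well above that of counting error. A spread over so few nerves is itself uncertain, and this excess was not tested. Jag2, Hey1 and Notch3, with at most 9 counts, gave no usable difference.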
